A study of Homo sapiens with 2 samples.

Results

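The zinc finger genes of chromosome 19 were compared in HepG2 cells, a human hepatocellular carcinoma line, that were given free fatty acids without or with 9-cis-RA. The genes were taken by a rule that used no measured value: an entry on chromosome 19, annotated as protein-coding, whose symbol is ZNF followed by a number and at most 1 letter. The rule found 247 genes among the 60623 entries counted, and these 247 made up 16.8% of the 1470 protein-coding entries of the chromosome. Of them, 83 lay on the short arm and 164 on the long arm, split at base 26000000 of GRCh38, which falls in a stretch of 3.48 Mb without any counted gene. A further 16 entries on the chromosome with such a symbol are annotated as something other than protein-coding and were left out.

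Each group held 1 library of wild-type HepG2 cells, labelled as one batch. Cells of both groups received 1 mM FFA, a mixture of oleic and palmitic acid carried on albumin, for 24 h, and the FFA + 9-cis-RA group also received 10 μM 9-cis-RA for 24 h. Both groups therefore carried the fatty acid load, no library of cells without it was analysed here, and HepG2 is a single tumour-derived line. The comparison asks which transcripts differ when a ligand of the RXR and RAR receptors is added to fat-loaded cells. Neither group was replicated, so the spread between cultures is unknown and no p-value, replicate SD or standard error is given.

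C2H2 zinc finger proteins carry small loops, each folded around a zinc ion held by a pair of cysteines and a pair of histidines, and a row of such fingers reads a stretch of DNA. In the largest subfamily the fingers follow a KRAB domain, which binds the corepressor TRIM28. TRIM28 in turn brings the histone methyltransferase SETDB1 and HP1 proteins, which silence the bound DNA, in many cases a transposable element. The genes arose by repeated tandem duplication, and chromosome 19 holds most of the clusters that resulted. They are usually transcribed at low levels in most tissues.

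What many of these genes share at the DNA level is shown first. Within the longest coding sequence of each gene in GENCODE release 29, the in-frame run of 15 bases held by the most members was CATACTGGAGAGAAA, which codes for the last histidine of a finger and the start of the linker to the next finger. It was found in 107 of the 247 genes (43.3%) and in 62 of 19385 other protein-coding genes (0.32%). The first copy in each of 8 genes from both arms is printed below with its flanks, 30 bases on the coding strand, 5′ to 3′, with the shared run in capitals.
ZNF91: agaattCATACTGGAGAGAAAccctacaaa
ZNF714: acaagaCATACTGGAGAGAAAcctttcaaa
ZNF486: aaaattCATACTGGAGAGAAAccgtacacg
ZNF30: agggttCATACTGGAGAGAAAccctatgag
ZNF571: agaactCATACTGGAGAGAAAccctatgaa
ZNF45: agaggcCATACTGGAGAGAAAccgtatcag
ZNF480: agaattCATACTGGAGAGAAAccttacaaa
ZNF888: acaattCATACTGGAGAGAAAccttacaag

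These copies are exonic and coding. In GRCh38 the stretch of ZNF91 lies at chr19:23362010-23362039 on the minus strand, that of ZNF714 at chr19:21117073-21117102 on the plus strand and that of ZNF486 at chr19:20197650-20197679 on the plus strand. On the long arm, the stretches lie at chr19:34944308-34944337 (plus, ZNF30), chr19:37564751-37564780 (minus, ZNF571), chr19:43914185-43914214 (minus, ZNF45), chr19:52322001-52322030 (plus, ZNF480) and chr19:52907341-52907370 (minus, ZNF888). ZNF91 held 10 copies of the run, ZNF888 held 9 and ZNF714 held 8, while ZNF30, ZNF571 and ZNF45 held 1 each. A C2H2 finger pattern was found in 246 of the 247 coding sequences, with a median of 13 fingers and at most 39, in ZNF729. The gene without a match, ZNF738, had the KRAB box pattern alone. Of other protein-coding genes, 3.15% held at least 1 finger match.

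By exact sequence, most members could be told apart from genes at other places. Only identical windows were looked for, and what the reads themselves could distinguish was not measured. In transcript windows of 100 bases, 188 members shared no window with a gene at another place, and 13 shared over 5%. The highest share was 23.7%, in ZNF98, which shared windows with ZNF492. Reads placed at several positions were not counted, so the counts of these 13 genes, which include ZNF443 and ZNF799, ZNF417 and ZNF587, and ZNF468, are uncertain. Reads overlapping several genes were also left out, and 40 members shared over 10% of their exon length with another counted gene. Among these 40 are ZNF222 (17.2%), ZNF358 (20.1%), ZNF776 (11.6%) and ZNF799 (12.9%), whose values are given below.

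The libraries held 60821539 counted fragments in FFA and 57669670 in FFA + 9-cis-RA. As a check of the treatment label, CYP26A1, the retinoic acid-degrading enzyme that retinoids induce, had 4 counts in FFA and 709 in FFA + 9-cis-RA. The 8 hepatocyte markers were all detected, from 341 and 278 counts for TTR to 294592 and 296345 for SERPINA1. Their levels were not all alike in the libraries: AFP had 273242 and 134862 counts and ALB 186609 and 112866, and the counting interval of the log2 ratio lay below 0 for 5 of the 8 and above 0 for 3. The 7 markers of fibroblasts, blood cells and endothelium summed to 254 and 173 counts, with DCN and PTPRC at 0 in both libraries. In bulk RNA, fewer cells expressing a gene and less RNA per cell cannot be told apart.

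The zinc finger genes were thinly counted. Together they took 137912 counts in FFA and 145299 in FFA + 9-cis-RA, which is 0.227% and 0.252% of each library. A total of 210 members had at least 10 counts over both libraries and were compared, 68 on the short arm and 142 on the long arm. Another 14 had 1 to 9 counts. The remaining 23 had no count in either library, 10 on the short arm and 13 on the long arm, where the limit is 3 counts per library. Among these 23 were ZNF536, known from the nervous system, ZNF729, with the most fingers, and, from the same part of the short arm, ZNF98, ZNF99, ZNF723, ZNF728 and ZNF726. Of the 14 with 1 to 9 counts, 9 were counted in 1 library only, none with more than 2 counts, so no member was detected at depth in one library and missing in the other.

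Levels were compared between genes as normalized counts per kilobase of exon. The median compared member stood at 78.9 in FFA and 85.9 in FFA + 9-cis-RA, against 289 and 291 for compared protein-coding genes. ZNF146, a small protein made of fingers with no KRAB domain, had the highest level of all members in FFA, at 1868 and 2006 normalized counts per kilobase. It was followed in FFA by ZNF114 at 1537 and 2442, ZNF428 at 1161 and 1174, ZNF787 at 1036 and 886, and ZNF581 at 785 and 709. ZNF114 was thus the member with the highest level per kilobase in FFA + 9-cis-RA, ahead of ZNF146. At the other end, ZNF93, a KRAB zinc finger protein that represses LINE-1 elements, had 11 and 16 counts.

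As a group, the zinc finger genes of chromosome 19 stood slightly higher in FFA + 9-cis-RA. The fold change used here is the log2 ratio of FFA + 9-cis-RA to FFA, on normalized counts plus a pseudocount of 1, which understates the change of low genes. Its median over the 210 compared members was 0.11, with quartiles of -0.027 and 0.26, against a median of -0.020 over all 20431 compared genes. The value was above 0 in 146 of 210 members (69.5%), against 47.7% of all compared genes. Summed over all 247 members, the normalized counts differed by 0.10 on the log2 scale, with a 95% counting interval of 0.092 to 0.11 that covers counting error only. A large part of the rise in this sum came from ZNF114, with 4678 counts in FFA and 7289 in FFA + 9-cis-RA.

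The change of single members was small. No member exceeded a log2 fold change of 1, where 3.37% of all compared genes did. Below -1 there was 1 member, against 4.90% of all compared genes. That member, ZNF625, had 10 counts in FFA and 4 in FFA + 9-cis-RA, a log2 fold change of -1.11 with a counting interval of -3.42 to 0.50, and 83.2% of its exon length is shared with other entries, among them the readthrough gene ZNF625-ZNF20. Of the compared members, 191 (91.0%) lay within 0.5 of 0, against 76.7% of all compared genes. Among genes with 200 counts or more the shares were close, 95.2% of members and 91.5% of protein-coding genes.

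An exact 95% interval of the ratio of the 2 counts was used to separate members whose difference exceeded counting error. It lay above 0 for 67 of 210 members (31.9%) and below 0 for 12 (5.71%), and it included 0 for 131. The number below 0 was 20 in place of 12 when the trend on expression was removed, and also when the trends on length and GC content were. Over all compared genes the interval lay above 0 for 22.5% and below 0 for 25.7%. Over compared protein-coding genes these shares were 29.5% and 30.6%, so the share of members above 0 was near theirs and the share below 0 was lower. The interval says nothing of the spread between cultures. Members in the higher direction ranged from 0.10 to 0.94 with a median of 0.30, and those in the lower direction from -0.46 to -0.15 with a median of -0.22.

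**Figure D1:**
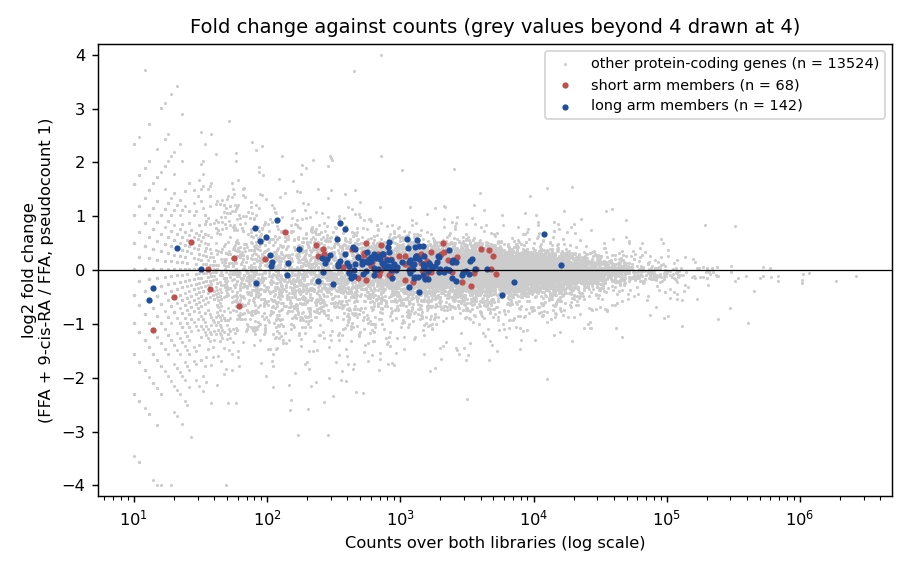
Log2 fold change (FFA + 9-cis-RA against FFA) of each compared gene against its counts over both libraries on a log axis, with 68 short arm members in red, 142 long arm members in blue and 13524 other protein-coding genes in grey. The members form a narrow band, most of it slightly above 0, and none lies above 1.

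Because these genes have low counts, members were set beside protein-coding genes with counts in the same range. Between 200 and 1000 counts over both libraries (1000 left out), 89 members had a median of 0.15, against -0.055 for 1587 other protein-coding genes. In that range the interval lay above 0 for 26 of 89 members and below 0 for 0, where 22.0% and 29.9% of the other protein-coding genes did. At 1000 counts or more, 97 members had a median of 0.075, with the interval above 0 for 37 and below 0 for 12, against a median of 0.0089 for 9707 others, whose interval lay above 0 for 35.2% and below 0 for 34.4%. In the higher range, the share of members with an interval above 0 was thus near that of other genes, and the shares with one below 0 were 12.4% and 34.4%. The 15 members with at least 50 and under 200 counts had a median of 0.23. The 9 members with 10 to 49 counts had a median of -0.34, and the interval of each included 0.

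Gene length and base composition differ between these genes and others, and were compared in the same way. Among genes whose exon length fell in the middle range of the members, 3899 to 7133 bases, the median was 0.14 over 104 members and 0.010 over 4964 other protein-coding genes. Among genes in the middle range of the members for GC content, 41.7% to 47.6%, it was 0.12 over 104 members and 0.0087 over 3218 others. With a trend of the fold change on length removed, the median of all members was 0.087, and with trends on length and then on GC content removed it was 0.069, against -0.035 for all compared genes.

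**Figure D2:**
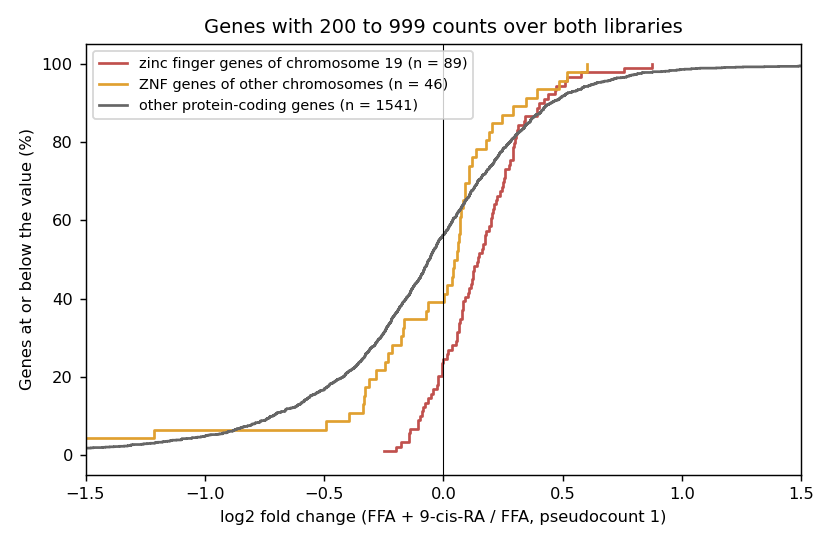
Cumulative share of genes (%) at or below each log2 fold change, for genes with at least 200 and under 1000 counts over both libraries: 89 zinc finger genes of chromosome 19 (red), 46 ZNF genes of other chromosomes (orange) and 1541 remaining protein-coding genes (grey). The red line starts at -0.25, and 75.3% of its genes lie above 0, against 60.9% of the orange and under 50% of the grey ones.

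By their overall median, genes of the same name on other chromosomes stood between the chromosome 19 members and the rest. The 215 compared ZNF genes of other chromosomes had a median of 0.039, with the interval above 0 for 70 and below 0 for 49. Their share with an interval above 0, 32.6%, was slightly higher than the 31.9% of members. In the range of 200 to 1000 counts, 46 of them had a median of 0.050, with the interval above 0 for 8 and below 0 for 12. There the share above 0 was 17.4%, lower than the 22.0% of other protein-coding genes. Under 200 counts their medians were higher than those of members. With 10 to 49 counts, 6 genes had a median of 0.79, against -0.34. From 50 to under 200 counts, 6 genes had one of 0.34, against 0.23. The median of the members was not particular to chromosome 19. On chromosome 7, 28 ZNF genes had a median of 0.12, and 27 of chromosome 16 had one of 0.087. Those of chromosome 1, 19 genes, stood at 0.018. The other 846 compared protein-coding genes of chromosome 19 had a median of -0.023, with the interval above 0 for 215 and below 0 for 273. Of these, the 85 that lie inside the zinc finger clusters had a median of 0.025 and the 761 outside had one of -0.026. No test of these differences could be made with 1 library per group.

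The 68 short arm members had a median of 0.14, and the 142 long arm members a median of 0.11, a difference of 0.032. The interval lay above 0 for 26 short arm members (38.2%) and below 0 for 4 (5.88%). On the long arm it lay above 0 for 41 members (28.9%) and below 0 for 8 (5.63%). Over compared protein-coding genes these shares were 29.5% and 30.6%, so the long arm share above 0 was near theirs. The gap between the arms was larger among members with at least 200 and under 1000 counts. There, 26 short arm members had a median of 0.22 and 63 long arm members one of 0.12. The interval lay above 0 for 11 (42.3%) and 15 (23.8%) of them, against 22.0% of other protein-coding genes in that range. At 1000 counts or more the medians were 0.095 over 33 members and 0.075 over 64. No test of the arms could be made. Summed counts went from 45252 to 47804 on the short arm and from 92660 to 97495 on the long arm, which after scaling is a log2 ratio of 0.11 (interval 0.088 to 0.13) and 0.10 (interval 0.088 to 0.11). The intervals of the arms overlapped. The long arm sum includes ZNF114, a single gene that went from 4678 to 7289 counts. A ratio without ZNF114 was not computed, so the overlap may rest on this gene.

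Neighbouring members whose starts lie within 1 Mb of each other were joined into clusters, which gave 16 runs, and 9 of these had at least 5 members and together held 236 of the 247. Numbered from the tip of the short arm, clusters 1 to 4 lie on the short arm and 5 to 9 on the long arm. Their medians were 0.18, 0.031, 0.15 and 0.18 on the short arm and -0.0092, 0.11, 0.15, 0.028 and 0.15 on the long arm. The median was thus above 0 in 8 of 9 clusters, and the exception, cluster 5, had 4 compared members.

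**Figure D3:**
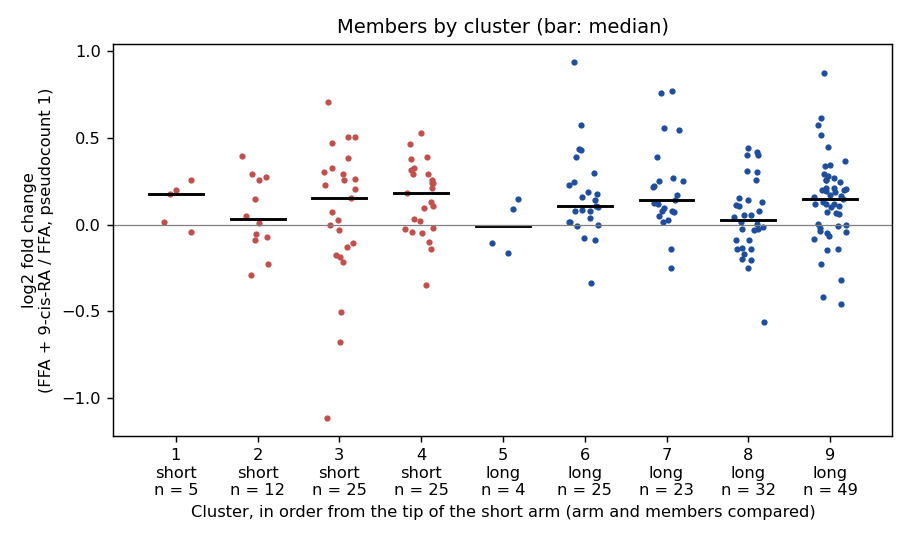
Log2 fold change of each compared member (point) in the 9 clusters in order from the tip of the short arm, with the median of each cluster as a black bar, short arm in red and long arm in blue, and the number of members compared under each cluster. Points in every cluster fall on both sides of 0, and the bars lie between -0.0092 and 0.18.

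For single genes, raw counts are given for FFA first and FFA + 9-cis-RA second, and the value in brackets is the log2 fold change with its counting interval. On the short arm, cluster 1 (chr19:2819868-2944971) ran from ZNF554 to ZNF77. Its highest member was ZNF555, with 452 and 530 counts (0.26, interval 0.074 to 0.44), and its lowest ZNF57, with 875 and 833 (-0.043, interval -0.18 to 0.095). Cluster 2 (chr19:7069703-9793180) held both directions: ZNF699 had 115 and 149 counts (0.40, interval 0.041 to 0.77) and ZNF561 had 1888 and 1517 (-0.29, interval -0.39 to -0.19). ZNF266 and ZNF426, which lie in the same cluster, had 2291 and 2683 counts and 922 and 1107 counts, and both intervals lay above 0.

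Cluster 3 (chr19:11483427-12640098) had 25 members, all of them compared. The interval lay above 0 for 10 of them and below 0 for 2. These shares were 22.5% and 25.7% over all compared genes, and 29.5% and 30.6% over protein-coding ones. ZNF441 had 874 and 1219 counts (0.51, interval 0.38 to 0.63), ZNF439 had 232 and 324 (0.51, interval 0.26 to 0.76) and ZNF44 had 1756 and 2247 (0.38, interval 0.29 to 0.47). ZNF563, which lies beside ZNF44 (chr19:12317477-12333720 against chr19:12224686-12294887), had 680 and 574 counts and went the other way (-0.22, interval -0.38 to -0.054). The closely related neighbours ZNF799 and ZNF443 also differed in direction, with 642 and 777 counts (0.30) and 587 and 505 counts (-0.19), and ZNF443 shared 13.4% of its windows, mostly with ZNF799.

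Cluster 4 (chr19:19668796-24129961) lies next to the centromere and held 37 members, of which 25 were compared and 7 had no count in either library. The interval lay above 0 for 10 and below 0 for none, where 22.5% and 25.7% of all compared genes did. ZNF91, a KRAB zinc finger protein with 32 finger matches that represses SVA retrotransposons, had 1225 and 1421 counts (0.24, interval 0.13 to 0.35). ZNF714 had 2040 and 2597 (0.38, interval 0.29 to 0.46), and ZNF486 had 306 and 415 (0.47, interval 0.25 to 0.69). The lowest of its well-counted members, ZNF66, had 256 and 228 (-0.14, interval -0.40 to 0.12).

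On the long arm, cluster 5 (chr19:34677639-34964229) had the fewest compared members, 4, with ZNF30 at 490 and 532 counts (0.15, interval -0.034 to 0.33) and ZNF181 at 811 and 711 (-0.16, interval -0.31 to -0.015). Cluster 6 (chr19:36182060-37817300) had 25 compared members. Their interval lay above 0 for 10 and below 0 for none, against 22.5% and 25.7% of all compared genes. ZNF571 had 135 and 198 counts (0.58, interval 0.26 to 0.91), and its overlapping neighbour ZNF540 had 41 and 78 (0.94, interval 0.39 to 1.54). Just before them in the same cluster, ZNF569 and ZNF570 had 557 and 737 and 347 and 461, and ZNF793, which lies between ZNF570 and ZNF540, had 8 and 6. ZNF146, the member with the highest level in FFA, had 7820 and 8237 counts (0.10, interval 0.058 to 0.15). ZNF382, a KRAB repressor described as a tumour suppressor, had 376 and 390 (0.080, interval -0.13 to 0.29).

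Cluster 7 (chr19:43525497-45076587) had 23 compared members, and the interval lay above 0 for 6 and below 0 for none, where 22.5% and 25.7% of all compared genes did. ZNF222, which shares 17.2% of its exon length with another gene, had 143 and 238 counts (0.76, interval 0.46 to 1.07). ZNF45 had 543 and 783 (0.55, interval 0.40 to 0.72). ZNF224, a KRAB repressor known to act on the aldolase A gene, had 896 and 1045 (0.25, interval 0.12 to 0.38). ZNF576 was the lowest well-counted member, with 682 and 608 (-0.14, interval -0.30 to 0.022).

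Cluster 8 (chr19:51571283-53580269) had 32 compared members, of which 18 had a value above 0. The interval lay above 0 for 6 and below 0 for 2, and the share above was near the 22.5% of all compared genes. ZNF888 had 593 and 791 counts (0.44, interval 0.29 to 0.60), and ZNF347 was the lowest well-counted member, with 170 and 140 (-0.25, interval -0.59 to 0.079). The members whose interval lay below 0 were ZNF480, with 1415 and 1203 (-0.21, interval -0.32 to -0.095), and ZNF614, with 866 and 757 (-0.17, interval -0.31 to -0.024). ZNF614 stands among related genes that went the other way, ZNF613 with 318 and 373 counts and ZNF615 with 326 and 396. ZNF331, an imprinted gene at the end of this cluster, had 824 and 801 (-0.013, interval -0.16 to 0.13). ZNF649, a KRAB repressor, had 203 and 210 (0.076, interval -0.21 to 0.36).

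Cluster 9 (chr19:55476617-58481230), at the tip of the long arm, was the largest, with 59 members and 49 compared, and it fell into unlike stretches. Its first 9 members, from ZNF628 to ZNF444 within 0.684 Mb, had a median of -0.15: 8 of 9 lay below 0, with the interval below 0 for 5 and above 0 for none. None of these 9 had the KRAB pattern, and their GC content ran from 61.8% to 71.0%. The 40 compared members beyond ZNF444 had a median of 0.19, with the interval above 0 for 16 and below 0 for none. Of all compared genes, 22.5% had an interval above 0 and 25.7% one below, and of protein-coding ones 29.5% and 30.6%. Of those 40, 34 had the KRAB pattern, and their median GC content was 47.9%. This division was made after the values had been seen.

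Of the 12 members with an interval below 0, 5 belong to that first stretch. ZNF444, a zinc finger protein with a SCAN domain, had 3368 and 2410 counts (-0.46, interval -0.53 to -0.38), the lowest value among well-counted members. Its neighbours were ZNF579 with 792 and 582 counts (-0.42, interval -0.57 to -0.26), ZNF787 with 3857 and 3236 (-0.23, interval -0.29 to -0.16), ZNF524 with 651 and 512 (-0.32, interval -0.49 to -0.15) and ZNF581 with 1296 and 1148 (-0.15, interval -0.26 to -0.032). ZNF581 shares 24.9% of its exon length with its neighbours. Away from this stretch, ZNF358 in cluster 2 had 1582 and 1324 counts (-0.23, interval -0.34 to -0.12), with a GC content of 67.7%.

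In the rest of cluster 9 the values were higher. ZNF814 had 126 and 227 counts (0.87, interval 0.56 to 1.20), the highest log2 fold change among members with at least 100 normalized counts in a library. ZNF776 had 629 and 841 (0.45, interval 0.30 to 0.60). ZNF324 and ZNF446 stood together at the end of the cluster with 455 and 664 counts (0.57, interval 0.40 to 0.75) and 343 and 482 counts (0.52, interval 0.32 to 0.72). They overlap each other over 25.1% and 29.8% of their exon length, and reads on the overlap were counted for neither gene. ZNF324 also shared 5.43% of its windows, mostly with ZNF324B, so its counts are uncertain. ZNF274, a KRAB zinc finger protein known to bring SETDB1 to the 3′ ends of other zinc finger genes, had 1626 and 1849 (0.21, interval 0.12 to 0.31).

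Outside the clusters, ZNF114 (chr19:48270081-48287608, plus strand) had the clearest difference of all members. Its counts were 4678 in FFA and 7289 in FFA + 9-cis-RA (0.67, interval 0.61 to 0.72), and its interval bound lay farther from 0 than that of any other well-counted member. It encodes a KRAB protein with only 3 finger matches, and none of its exon length is shared with another gene. The other unclustered members with an interval above 0 were ZNF574, with 1264 and 1371 counts, and ZNF473, a factor in histone pre-mRNA processing, with 1578 and 1729.

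**Figure D4:**
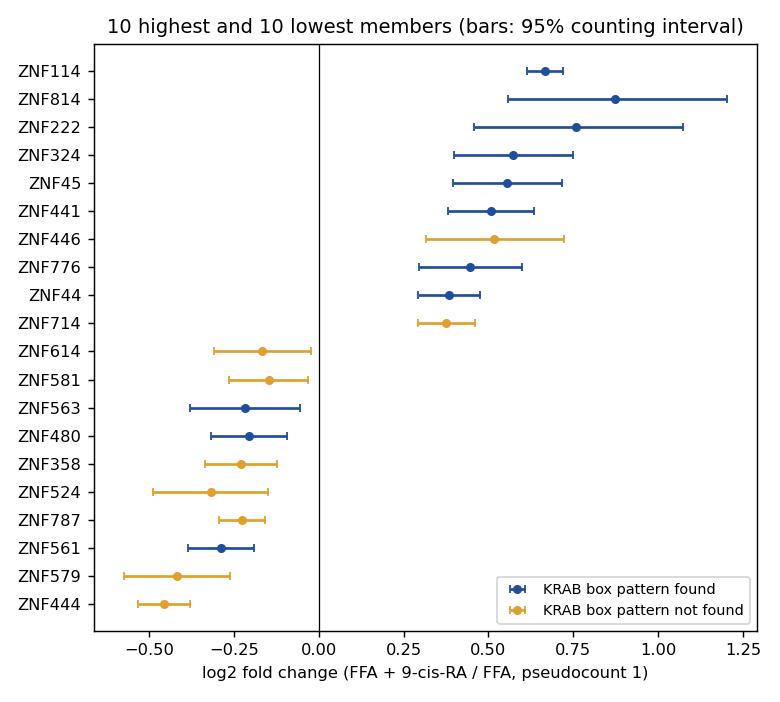
Log2 fold change (points) with exact 95% counting intervals (bars) of the 10 highest and 10 lowest members with at least 100 normalized counts in a library, ordered by the interval bound nearest to 0, with the KRAB box pattern found in blue and not found in orange. The 10 highest lie between 0.38 and 0.87 and the 10 lowest between -0.46 and -0.15. The pattern was found in 8 of the highest and in 3 of the lowest. It misses diverged boxes, as in ZNF714 among the highest and ZNF614 among the lowest.

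The parts of the proteins were set against the fold changes. The KRAB box was read as either of 2 patterns of conserved residues in the translated coding sequences. It was found in 198 of 247 members, and diverged boxes are missed, as in ZNF714, ZNF443 and ZNF614. The 165 compared members with the pattern had a median of 0.13, with the interval above 0 for 56 and below 0 for 4, and the 45 without it had a median of 0.026, with the interval above 0 for 11 and below 0 for 8. The background for these counts is 22.5% above and 25.7% below over all compared genes, and 29.5% above and 30.6% below over compared protein-coding genes. Against the protein-coding genes, the share above 0 of members with the pattern, 33.9%, was only slightly higher, and their share below 0, 2.42%, was far lower. Of the 12 members with an interval below 0, 4 had the pattern (ZNF561, ZNF563, ZNF480 and ZNF181). The 8 without it include ZNF443 and ZNF614, whose diverged boxes the pattern misses. The groups by pattern are therefore not groups by KRAB domain, and the contrast between them may be overstated. On other chromosomes, 84 ZNF genes with the pattern had a median of 0.054 and 131 without it one of 0.034.

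Members with more fingers had slightly higher medians, and the Pearson correlation of the fold change with finger number was 0.16. Over compared protein-coding genes the interval lay above 0 for 29.5% and below 0 for 30.6%. The 55 with under 10 finger matches had a median of 0.026, with the interval above 0 for 12 and below 0 for 7. The 87 with 10 to 14 fingers had a median of 0.12, with the interval above 0 for 31 and below 0 for 4. The 68 with 15 or more had one of 0.14, with the interval above 0 for 24 and below 0 for 1. In these finger groups the shares above 0 were 21.8%, 35.6% and 35.3%, and those below 0 were 12.7%, 4.60% and 1.47%. Base composition moved with the same groups. The 24 members with a GC content of 55% or more had a median of -0.035, with the interval above 0 for 4 and below 0 for 6, and 21 of them lacked the KRAB pattern. The 65 members with 45% to 55% GC had a median of 0.12, with the interval above 0 for 20 and below 0 for 1, and the 121 under 45% had a median of 0.13, with the interval above 0 for 43 and below 0 for 5. The KRAB pattern, the number of fingers and the GC content vary together in these genes, and their parts in the differences were not tested.

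**Figure D5:**
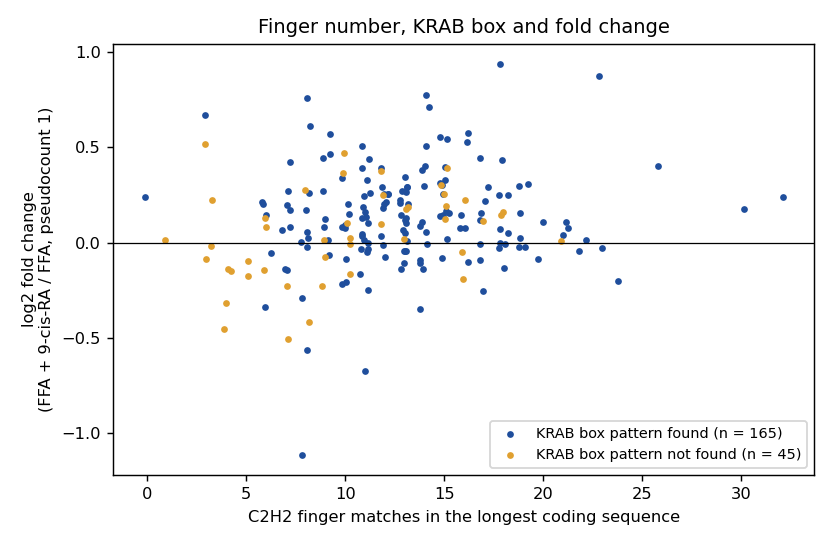
Log2 fold change of the 210 compared members against the number of C2H2 finger matches in the longest coding sequence, with the KRAB box pattern found (blue, 165) or not found (orange, 45); points are moved slightly sideways so that they do not hide each other. Orange points gather at few fingers, where several lie below 0, and the medians run from 0.026 under 10 fingers to 0.14 at 15 or more.

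The proximal promoters of the members with the extreme values were read for AGGTCA, the core letters bound by nuclear receptors such as RXR and RAR. RefSeq windows of 250 bases before to 50 after the start site (GRCh38.p14) were at hand for 216 of 247 members, 268 windows in all, and ZNF114 had none. AGGTCA on either strand (TGACCT on the other) was present in 35 windows (13.1%), against 13.8% of all 35116 promoter windows. The windows of the members had a median of 20 CpG pairs, against 14 over all windows. Shown here are the window of the highest well-counted member by fold change, ZNF814, and those of both genes at the end of the lower stretch, with AGGTCA in capitals where it occurs.
ZNF814: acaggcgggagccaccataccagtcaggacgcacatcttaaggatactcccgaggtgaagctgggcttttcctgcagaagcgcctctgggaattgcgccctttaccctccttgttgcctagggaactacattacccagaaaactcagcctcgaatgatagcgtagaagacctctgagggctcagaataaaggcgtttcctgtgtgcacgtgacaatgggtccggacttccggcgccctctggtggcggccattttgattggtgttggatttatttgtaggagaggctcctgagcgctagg
ZNF444: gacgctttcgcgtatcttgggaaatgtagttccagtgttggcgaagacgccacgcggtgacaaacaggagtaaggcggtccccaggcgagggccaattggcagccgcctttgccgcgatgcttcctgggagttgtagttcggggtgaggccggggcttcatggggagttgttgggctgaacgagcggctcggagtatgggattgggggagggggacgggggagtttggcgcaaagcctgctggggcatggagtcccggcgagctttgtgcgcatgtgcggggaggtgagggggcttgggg
ZNF787: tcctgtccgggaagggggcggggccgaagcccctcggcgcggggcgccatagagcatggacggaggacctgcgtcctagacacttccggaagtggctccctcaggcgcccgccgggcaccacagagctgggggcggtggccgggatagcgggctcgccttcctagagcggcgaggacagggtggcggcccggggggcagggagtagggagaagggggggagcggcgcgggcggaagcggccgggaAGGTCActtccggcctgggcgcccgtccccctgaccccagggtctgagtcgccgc

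These windows lie at chr19:57888988-57889287 on the minus strand for ZNF814, chr19:56141037-56141336 on the plus strand for ZNF444 and chr19:56121246-56121545 on the minus strand for ZNF787. The windows of ZNF814 and ZNF444 held no AGGTCA, and that of ZNF787, whose counts were lower in FFA + 9-cis-RA, held 1. The window of ZNF814 had 14 CpG pairs and 54.3% GC, against 23 pairs and 63.7% for ZNF444 and 32 pairs for ZNF787. A match of these letters is a description, and where they are missing nothing follows about the receptors.

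Transcripts of the proteins that act with KRAB zinc finger proteins had a median log2 fold change of -0.083. Of 25 such genes, all compared, 5 had an interval above 0, 15 had one below 0 and 5 had one that included 0. Among other protein-coding genes with 1000 counts or more over both libraries, as all 25 had, 35.2% lay above and 34.4% below. TRIM28, the corepressor bound by the KRAB domain, had 26478 and 29926 counts (0.20, interval 0.18 to 0.23). SETDB1, which methylates histone H3, had 2313 and 2249 (-0.013, interval -0.097 to 0.072), and its partner ATF7IP had 823 and 614 (-0.39, interval -0.55 to -0.24). The HP1 genes differed in direction: CBX1 had 5785 and 6312 counts (0.15), CBX3 24444 and 17692 (-0.44) and CBX5 6682 and 6133 (-0.096).

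Among the remaining silencing factors, the de novo DNA methyltransferase gene DNMT3A had 3395 and 2400 counts (-0.47, interval -0.55 to -0.40), while the maintenance enzyme gene DNMT1 had 7817 and 8177 (0.093, interval 0.048 to 0.14). The chromatin remodellers SMARCAD1 and ATRX had 2306 and 2529 counts (0.16) and 2396 and 2597 (0.14). The histone methyltransferase gene EHMT2 had 5920 and 5225 counts (-0.15), and the deacetylase gene HDAC2 had 5761 and 4871 (-0.21). TASOR and MPHOSPH8, of the HUSH complex that silences transposable elements, had 5158 and 4777 (-0.083) and 2978 and 2769 (-0.077).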

How the data were processed

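RNA sequencing of 2 HepG2 libraries, 1 per group, was re-analyzed. Values are raw counts of fragments per gene as the authors deposited them. Per the file headers, featureCounts 2.0.1 counted pairs only when both mates were mapped, with strand setting 2, and dropped reads with several positions or on several genes. Labels name GRCh38 and, among the tools, DESeq2. The aligner and annotation release are not given in the sources used here. Biotypes and coding sequences came from GENCODE release 29. Protein features were read from translated coding sequences in place of RefSeq proteins.

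Counts were scaled by DESeq2 1.42.0 size factors (R 4.3.3). The minimum for a comparison was 10 counts, summed over the libraries. Intervals are exact 95% Clopper-Pearson intervals and, like the floor of 3 counts, cover counting error only. Python 3.11.15, numpy 2.4.6, pandas 2.3.3, scipy 1.17.1, statsmodels 0.14.6 and matplotlib 3.10.9 were used, and edgeR 4.0.16 gave TMM factors as an alternative. The steps were tested on simulated data.

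Named members were the 10 highest and 10 lowest by the interval bound nearest to 0 with at least 100 normalized counts in a library, the 5 highest levels per kilobase in FFA, the extremes of each cluster and a fixed list with known roles. Others were chosen after their values were seen. Members and lists were chosen with earlier results of these data known. Alternatives were other scalings, pseudocounts of 0.1 and 5, minimums of none and 50, at most 10% overlap, the whole interval past 1, and removal of trends (loess span 0.3) on length and expression. Removal of trends on GC content, alone and after length, was added after the data were seen, as were the groups by GC content and the division of cluster 9.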

Additional observations from a re-analysis of the deposited data

How the results depend on the processing

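Of 86 values recomputed under the alternatives, 77 stayed within the limits set for them, and 9 moved. For counts of members the limit was 1.5 times the count. For the medians the limits were wide, -0.099 to 0.33 over all members and -0.27 to 0.34 for the difference between the arms. That every median stayed within such limits therefore says little, and the ranges below show how far the medians shifted. No direction changed for the medians, which ran from 0.069 to 0.16 over all members, from 0.075 to 0.19 on the short arm and from 0.069 to 0.16 on the long arm. The difference between the arms ran from 0.0054 to 0.043. Scaling by total counts moved the median of all compared genes from -0.020 to 0.029, and that of the members from 0.11 to 0.16. The number of members above a log2 fold change of 1 was 5 with no count minimum and 1 with the expression trend removed, in place of 0. The number below -1 was 0 with a minimum of 50 counts, with a pseudocount of 5, with at most 10% overlap and with the whole interval past the threshold, and 2 with no minimum, in place of 1. The members with an interval below 0 were 20 with the expression trend removed and 20 with the length and GC trends removed, in place of 12, and those with an interval above 0 ranged from 56 to 82. A minimum of 50 counts or a 10% limit on overlap removes ZNF625 by construction. Its interval does not lie wholly below -1, and a pseudocount of 5 shrinks the fold change of such low counts. Having no minimum adds members with under 10 counts, 224 compared in place of 210. For the changes after removal of trends the cause was not tested. Low counts limit the 24 compared members with under 200 counts and the 37 members that were not. Leaving out a library would empty a group. No paired analysis was possible because each group held 1 library.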
